A study of Mus musculus with 4 samples.

Results

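The 9 genes described here are transcripts of neutrophils and their precursors that were counted in single haematopoietic stem cells (HSC) of mouse bone marrow: S100a8, S100a9, Ngp, Camp, Lcn2, Ltf, Chil3, Retnlg and Lyz2. They are 9 of the 24411 genes in the tables, and each was found by its row name in all 4 libraries and in all 96 barcodes of each library. The genes were picked after they had been seen to stand out in a few of these same cells, so their concentration in those cells is a description and carries no test. A total of 2 libraries were labelled Mat KO, and the other 2, which serve as control, were labelled wild type (WT). The study's title concerns small nucleolar RNAs of the imprinted Dlk1-Gtl2 locus and the self-renewal of long-term HSC. All 4 libraries came from bone marrow HSC that were sorted by flow cytometry and picked one by one, and the labels give neither the deleted sequence nor strain, age or number of animals. Whether the paired libraries are from different animals is not stated, so the p-values speak of spread among libraries, possibly a technical one, and not among animals.

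Neutrophils arise in the marrow through promyelocytes, myelocytes and metamyelocytes, and each stage fills its own class of granule. Primary granule proteins such as myeloperoxidase are made first, the secondary granule proteins Ngp, Camp, Lcn2 and Ltf follow at the myelocyte stage, and S100a8, S100a9 and Retnlg stay high into the mature cell. S100a8 and S100a9 are cytosolic and not stored in granules, and Lyz2 and Chil3 are also made by monocytes. Long-term HSC sit above these stages, and such messages are not typical of them.

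The genes lie on 5 chromosomes of the mm10 build. S100a8 (chr3:90668978-90670035, + strand) and S100a9 (chr3:90692632-90695721, - strand) are neighbours with 22596 bases between them, and Chil3 (chr3:106147554-106167564, - strand) is on the same chromosome. Camp (chr9:109847379-109849617, - strand), Ngp (chr9:110419747-110423012, + strand) and Ltf (chr9:111019271-111042767, + strand) share chromosome 9. Lcn2 is at chr2:32384633-32388252 (- strand), Lyz2 at chr10:117277331-117282321 (- strand) and Retnlg at chr16:48872621-48874496 (+ strand). All are annotated as protein-coding.

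Promoter sequence is shown for the 4 genes whose 250 bases before the RefSeq start hold TTGNNCAA, a loose form of the palindromic motif bound by C/EBP proteins, the transcription factors of granulocyte development. The motif was looked for with the windows in view, it reads the same on both strands, and it was found in 4 of the 9 promoters (Ngp, Lcn2, Ltf and Retnlg) and in 5.65% of 32851 RefSeq promoters of the same length. Ngp held it 3 times, starting 138, 115 and 11 bases before the start, Lcn2 216 bases before, Ltf 75 bases before and Retnlg 89 bases before. Of 2 other motifs searched on both strands, TATAAA and GAGGAAGT (a PU.1-type site), each was found in 1 of the 9 windows, that of S100a8, against 12.4% and 2.44% of all promoters. A match is a description of the letters and shows no binding. The windows are from RefSeq (GRCm38.p6), all 9 genes matched an entry, and capitals mark TTGNNCAA. The stretches are Ngp chr9:110419630-110419807 (+ strand), Lcn2 chr2:32387740-32387989 (- strand), Ltf chr9:111019177-111019291 (+ strand) and Retnlg chr16:48872479-48872607 (+ strand). RefSeq places the start of Lcn2 513 bases inside the longer extent of the annotation given above, so its window lies within that annotated gene, and the starts of Ngp, Ltf and Lyz2 lie 61, 21 and 49 bases inside theirs.
Ngp: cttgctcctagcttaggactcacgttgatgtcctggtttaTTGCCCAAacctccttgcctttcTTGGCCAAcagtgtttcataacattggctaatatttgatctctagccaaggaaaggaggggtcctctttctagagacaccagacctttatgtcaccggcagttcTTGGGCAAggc
Lcn2: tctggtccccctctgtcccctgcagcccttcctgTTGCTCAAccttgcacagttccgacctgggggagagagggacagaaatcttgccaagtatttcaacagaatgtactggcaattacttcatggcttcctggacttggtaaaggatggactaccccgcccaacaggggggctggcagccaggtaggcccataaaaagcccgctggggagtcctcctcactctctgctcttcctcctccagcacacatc
Ltf: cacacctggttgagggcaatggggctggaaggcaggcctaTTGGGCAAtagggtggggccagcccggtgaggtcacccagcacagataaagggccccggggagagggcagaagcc
Retnlg: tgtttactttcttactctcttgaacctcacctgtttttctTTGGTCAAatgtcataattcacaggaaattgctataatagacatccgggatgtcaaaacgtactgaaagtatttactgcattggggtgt

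Lyz2, which encodes lysozyme M, lies 5475 bases from Lyz1, which encodes the lysozyme P of Paneth cells, and the pair is shown because their reads can be mixed up. Over the 120 bases before their RefSeq starts the promoters had 111 bases in common (92.5%). Of all 25-base stretches in the last 400 bases of the Lyz2 transcript, 44.7% also occur in Lyz1, as do 17.7% of 50-base stretches and 1.66% of 100-base stretches. The rule for reads that fit both genes is not stated in the labels, so a part of the Lyz1 count may be Lyz2. The same share for 25-base stretches was 6.12% between Chil3 and Chil4 and 0.266% between Retnlg and Retnla. The stretches are chr10:117282273-117282392 for Lyz2 and chr10:117292869-117292988 for Lyz1, both on the - strand, and capitals mark the 9 bases at which they differ.
Lyz2: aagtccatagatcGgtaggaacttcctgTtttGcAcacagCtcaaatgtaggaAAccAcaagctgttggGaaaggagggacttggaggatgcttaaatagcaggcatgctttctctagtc
Lyz1: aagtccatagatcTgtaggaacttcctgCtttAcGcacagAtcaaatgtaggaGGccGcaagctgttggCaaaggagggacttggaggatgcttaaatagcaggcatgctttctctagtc

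Each count is a unique molecular identifier (UMI), a tag put on the cDNA at the poly-A end of an RNA, so counts do not scale with transcript length. A barcode counted as a cell from 1000 detected genes up, which left 44 Mat KO replicate 1 cells, 48 Mat KO replicate 2 cells and 48 cells in either WT library. Their UMIs summed to 1900319 and 1768647 for Mat KO, against 3183279 and 3253608 for WT, so the Mat KO libraries were the shallower ones. All kept cells had barcodes 1 to 48. Barcodes 49 to 96 held no cell, with at most 99 UMIs and 89 genes each. They held almost no spike-in RNA either, with a median of 29 and 28 spike-in UMIs in Mat KO, against 47 and 38 in WT. In kept cells that median was 42788.5 and 43384.5 in Mat KO, against 55772.5 and 48068.5 in WT. Whether the UMIs of barcodes 49 to 96 were free RNA or UMIs given to a wrong barcode was not tested. All 23 genes of a long-term HSC list (Procr, Hlf, Mecom and others) were detected in the kept cells of every library. All 4 libraries used the same 96 barcode labels, so a barcode number is not a mark of one cell. Depth also went with the barcode number. Gene UMIs of the same barcode in a pair of libraries had Spearman coefficients of 0.60 to 0.84 over 44 to 48 barcodes, and spike-in UMIs 0.82 to 0.94. The cause was not tested. Confidence intervals given below are exact binomial 95% intervals, which cover counting error only.

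Taken over whole libraries, all 9 genes had a higher fitted level in Mat KO than in WT, but the difference was that of Mat KO replicate 1 for 7 of them. Only Lyz2 and Retnlg were higher in both Mat KO libraries than in both WT libraries, as were 17.8% of all genes tested. None of the 9 passed the test across all genes. Levels are given in CPM, UMI counts scaled by the library's gene UMIs over the kept cells, with replicate 1 before replicate 2 of each genotype.

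S100a8 and S100a9 encode the subunits of calprotectin, a calcium- and zinc-binding protein that makes up much of the neutrophil cytosol. S100a8 stood at 10598 and 1158 CPM in Mat KO, against 2553 and 1897 CPM in WT. S100a9 stood at 7846 and 499.8 CPM in Mat KO, against 1674 and 826 CPM in WT. For both, Mat KO replicate 1 was the highest library and Mat KO replicate 2 the lowest, so the WT libraries lay between them.

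The 4 secondary granule genes spread further. Ngp, which encodes a cystatin-related granule protein, stood at 4361 and 126 CPM in Mat KO, against 698 and 144 CPM in WT. Camp, which encodes the precursor of the antimicrobial peptide cathelicidin, stood at 4476 and 27.1 CPM in Mat KO, against 623 and 84.5 CPM in WT. In Ltf, the gene of the iron-binding protein lactoferrin, the values were 2065 and 5.09 CPM in Mat KO, against 236 and 34.7 CPM in WT. Mat KO replicate 2 was again the lowest library for these 3 genes. Lcn2, which encodes lipocalin 2, a binder of bacterial siderophores, stood at 2782 and 75.2 CPM in Mat KO, against 374 and 46.4 CPM in WT, with Mat KO replicate 2 between the WT libraries.

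The remaining 3 genes encode secreted proteins of neutrophils and monocytes. Chil3, which encodes a chitinase-like lectin, stood at 1736 and 17.5 CPM in Mat KO, against 359.7 and 22.4 CPM in WT. Retnlg, which encodes a resistin-like protein, stood at 300.5 and 283 CPM in Mat KO, against 12.9 and 171 CPM in WT. Lyz2, whose product cleaves bacterial cell walls, stood at 3549 and 3055 CPM in Mat KO, against 754 and 189 CPM in WT. Its 2 genotypes did not overlap, and they did not overlap either when the leading cell of each library was left out (2169 and 1084 CPM in Mat KO, 431 and 148 CPM in WT). Retnlg overlapped when its leading cells were left out, at 162 and 13.6 CPM in Mat KO and 1.91 and 20.2 CPM in WT.

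**Figure D1:**
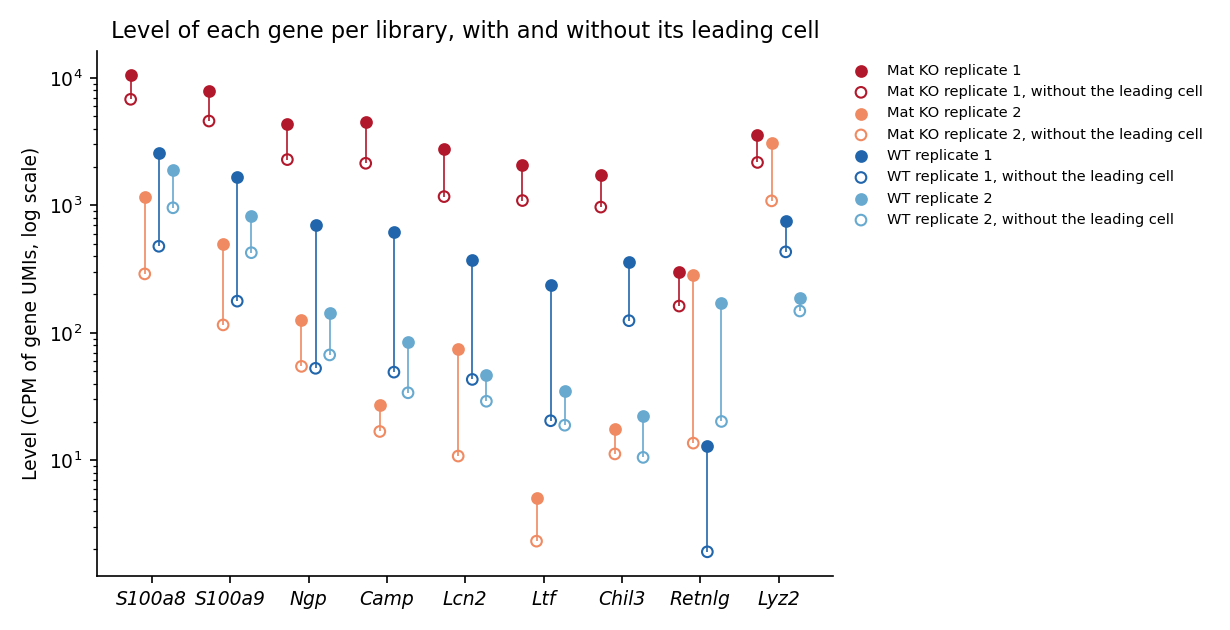
Level of each of the 9 genes in UMI counts scaled by the library's gene UMIs (CPM, log scale) in the 4 libraries, Mat KO in red and WT in blue. Filled points are all kept cells and open points leave out the cell with the most UMIs of that gene, such as the drop of Retnlg in Mat KO replicate 2 to 13.6 CPM, against 283 CPM with all cells.

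The edgeR quasi-likelihood test with Benjamini-Hochberg adjustment over 10663 genes called 0 of the 9 genes, beside 0.075% of all genes tested, which were 8 genes, all higher in Mat KO. At an unadjusted p under 0.05 it passed 4 of the 9 (Ngp, Lcn2, Retnlg and Lyz2), against 7.82% of all genes tested (4.5% in the higher direction alone), and DESeq2 also called 0 of the 9, beside 1.01% of the 10790 genes to which it gave an adjusted p. Log2 fold changes, Mat KO over WT, ran from 1.42 for S100a8 (SE 0.65, adjusted p = 0.640) to 2.95 for Ltf (SE 1.47, adjusted p = 0.687), with a median of 2.43 against -0.01 over all genes. All 9 were above 0, as were 49.4% of all genes. Lyz2 came nearest to the threshold, with a log2 fold change of 2.84 (SE 0.47, adjusted p = 0.0759), and ran from 3.77e-35 to 0.491 in adjusted p over its alternatives. Groups of libraries that do not overlap, with Mat KO higher, were seen in 2 of the 9 genes and in 17.8% of all genes. As the genes were picked from these cells, no support is drawn from their counts. With no gene filter all 9 were called, beside 1.05% of all genes. At equal depth the median log2 fold change was 1.17, and with cells of at least 2000 genes Retnlg stood at -0.050. Both settings also left out cells rich in the 9 genes. Equal depth, at 8800 UMIs, left out barcode 46 of Mat KO replicate 2 (8307 UMIs), which held 95.2% of the Retnlg UMIs of its library. The limit of 2000 genes left out that cell (1261 genes) and barcode 4 of Mat KO replicate 1 (1927 genes, 265 Retnlg UMIs). The part of depth in these shifts was not tested.

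The direction rested on 1 library. Without Mat KO replicate 1 the log2 fold changes of 7 genes were below 0, at -0.90 for S100a8, -1.28 for S100a9, -1.71 for Ngp, -3.66 for Camp, -1.44 for Lcn2, -4.68 for Ltf and -3.40 for Chil3, and S100a8, S100a9, Camp and Ltf were then called lower (adjusted p = 0.00352, 0.0178, 0.0113 and 0.0110), where 0.594% of all genes were called in either direction. Retnlg and Lyz2 stayed above 0, at 1.66 and 2.74, and Lyz2 was called higher (adjusted p = 0.000124). Without Mat KO replicate 2, 8 of the 9 were called higher, beside 1.05% of all genes. Without WT replicate 1 the count was 1 gene (Lyz2), beside 0.305% of all genes, and without WT replicate 2 it was 2 genes (Retnlg and Lyz2), beside 0.153%. In these fits the lone library of a genotype is assumed to vary like the pair. The summed share of the 9 genes was 3.77% and 0.525% of gene UMIs in Mat KO, against 0.728% and 0.341% in WT, and an exact two-sided permutation test over libraries gave p = 0.667, where 2 libraries against 2 cannot go below 0.3333.

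Most of these UMIs sat in a few cells. A total of 6 of the 188 cells had at least 10% of their UMIs in the 9 genes, and these 6 held 76.1% of all UMIs of the 9 genes and 2.99% of all UMIs. Mat KO replicate 1 had 3 of them (barcodes 14, 25 and 4, at 31.4%, 27.0% and 19.1%) and Mat KO replicate 2 had 1 (barcode 46, 36.6%), against 1 in WT replicate 1 (barcode 10, 37.9%) and 1 in WT replicate 2 (barcode 2, 16.3%). The nearest cell under the limit was barcode 3 of WT replicate 2, at 8.04%. Another 12 cells had 1 to 10%, and 170 cells had under 1%. The median cell of Mat KO had 0.503% and 0.0642%, that of WT 0.0978% and 0.0616%, so Mat KO replicate 1 stood apart in its ordinary cells as well.

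**Figure D2:**
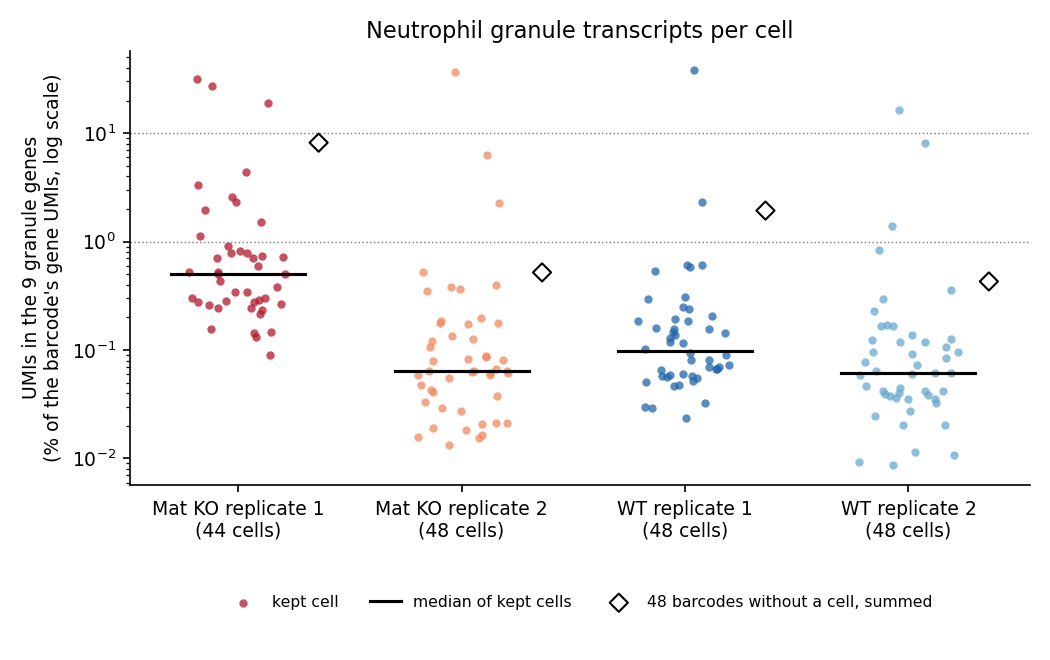
UMIs in the 9 genes as a percentage of all gene UMIs (log scale) for each kept cell (points) in 2 Mat KO and 2 WT libraries, with the median (line) and the summed share in the 48 barcodes without a cell (diamond). Dotted lines mark 1% and 10%, and 3, 1, 1 and 1 cells from left to right lie above 10%.

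The leading cell alone held 39.3% and 75.1% of the S100a8 UMIs in Mat KO, against 81.6% and 50.05% in WT. For Retnlg these shares were 46.4% and 95.2% in Mat KO, against 85.4% and 88.3% in WT. Lyz2 was spread more widely in 1 library: its leading cell held 43.8% and 67.8% in Mat KO, against 43.6% and 24.1% in WT. The 5 leading cells held at least 75% of every gene in every library other than Lyz2 in WT replicate 2, where they held 48.2%.

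Among the 14 cells with at least 900 UMIs in the 9 genes, 3 kinds of make-up were named. Barcodes 14, 25 and 3 of WT replicate 2 (1861, 1708 and 959 UMIs) were not placed in a kind. Nor was barcode 1 of Mat KO replicate 1, with 1057 UMIs over all 9 genes, 550 of them S100a8. That cell had 0.533% of its UMIs in the long-term HSC list. In the first kind all the secondary granule genes were present. Barcode 14 of Mat KO replicate 1 had 7907 S100a8, 6648 S100a9, 3686 Ngp, 3283 Camp, 3176 Lcn2, 1958 Ltf, 949 Chil3, 265 Retnlg and 2453 Lyz2 UMIs. Barcode 25 of the same library held 4187 Ngp and 4670 Camp UMIs but 0 Retnlg UMIs, and barcode 10 of WT replicate 1 held 2056 Ngp, 1829 Camp and 35 Retnlg UMIs. Both genotypes thus had a cell of this kind, but Mat KO replicate 2 and WT replicate 2 had none above 10%.

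In the second kind S100a8, S100a9 and Retnlg were high and the secondary granule genes were few. Barcode 46 of Mat KO replicate 2 had 1538 S100a8, 681 S100a9 and 477 Retnlg UMIs beside 6 Camp, 0 Ltf and 0 Chil3 UMIs. Barcode 4 of Mat KO replicate 1 had 1213 S100a8 and 265 Retnlg UMIs beside 11 Camp and 2 Ltf UMIs. In WT replicate 2, barcode 2 had 3089 S100a8, 1316 S100a9 and 491 Retnlg UMIs beside 3 Camp and 0 Ltf UMIs. This last cell had 0.585% of its UMIs in the 23 genes of the long-term HSC list, above the median of 0.479% over the cells under 1%. These were 177 UMIs over 7 of the 23 genes, and which genes they were is not given here. The other 5 cells above 10% had 0.0344% to 0.0976% in that list.

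In the third kind Lyz2 made up most of the UMIs of the 9 genes. Barcode 48 of Mat KO replicate 2 had 3664 Lyz2 UMIs of 3729, barcode 6 of the same library 1119 of 1123, and barcode 26 of Mat KO replicate 1 had 2952 Lyz2 and 663 Chil3 UMIs. Barcode 43 of WT replicate 1 had 681 Lyz2 and 340 Chil3 UMIs. The 16 genes of the monocyte and macrophage list (Ly6c2, F13a1, Ms4a6c and others) took 1.57%, 1.68%, 1.42% and 1.58% of UMIs in these 4 cells, against 0.00992% to 0.497% in the cells above 10%. The leading Lyz1 cells of Mat KO were of this kind: barcode 26 held 55.8% of its 362 UMIs in replicate 1 and barcode 48 held 135 of its 180 UMIs in replicate 2. The next cell of replicate 1 held 119 Lyz1 UMIs. Going by its 209 UMIs of close paralogs this was barcode 14, a cell of the first kind.

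**Figure D3:**
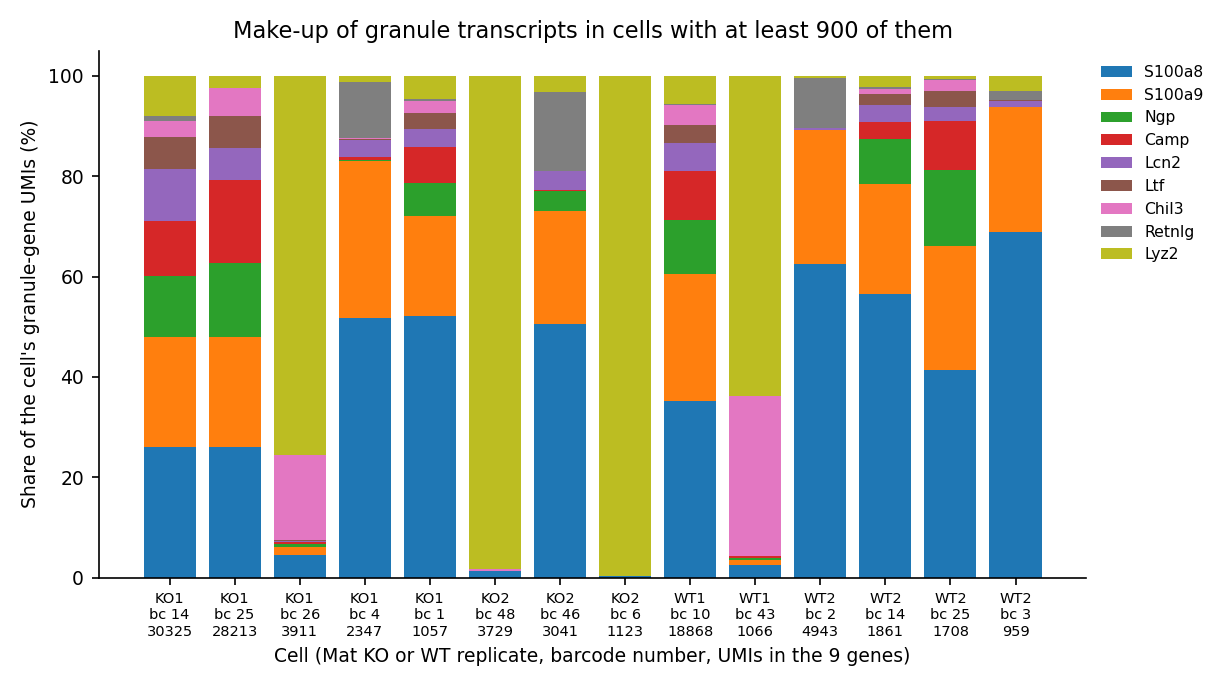
Share of each of the 9 genes in the UMIs of the 9 genes (stacked bars, in percent) for the 14 cells with at least 900 such UMIs, with Mat KO replicates (KO1, KO2) left of WT replicates (WT1, WT2). Below each bar are the barcode number and the UMIs in the 9 genes, and Lyz2 takes most of the bar in barcodes 26, 48, 6 and 43.

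Low counts of these genes were also found in nearly every other cell. S100a8 had at least 1 UMI in 44 of 44 and 47 of 48 cells for Mat KO, against 48 of 48 and 48 of 48 cells for WT. Ngp was seen in 44 of 44 and 20 of 48 Mat KO cells, against 37 of 48 and 25 of 48 WT cells. Ltf was seen in 39 of 44 and 3 of 48 Mat KO cells, against 21 of 48 and 12 of 48 WT cells. After each cell was thinned to 8800 UMIs, which left out 18 cells, S100a8 was seen in 100% and 68.3% of cells for Mat KO, against 91.3% and 81.8% for WT, and Ngp in 89.7% and 19.5% for Mat KO, against 30.4% and 25.0% for WT. At equal depth Mat KO replicate 1 was thus the highest library and Mat KO replicate 2 the lowest for both genes.

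The median of the 170 cells under 1% was 120.5 and 17 UMIs in the 9 genes for Mat KO, against 45.5 and 23 UMIs for WT. Inside a library these UMIs went with depth, with Spearman coefficients of 0.71 and 0.42 for Mat KO cells and 0.66 and 0.60 for WT cells. As a percentage of the cell they went the other way, at -0.68 and -0.40 for Mat KO cells and -0.53 and -0.43 for WT cells (34 and 45 Mat KO cells, 46 and 45 WT cells, and depth is part of both measures). S100a8 made up 49.5% and 33.2% of the UMIs of the 9 genes in these Mat KO cells, against 45.2% and 49.1% in WT cells. S100a9 UMIs per S100a8 UMI were 0.373 and 0.435 in these Mat KO cells, against 0.371 and 0.414 in WT cells. In the cells above 10% they were 0.824 and 0.443 in Mat KO, against 0.720 and 0.426 in WT. The ratio was thus higher above 10% in the replicate 1 libraries and nearly the same in the replicate 2 libraries. The cells above 10% were 3 and 1 in Mat KO, against 1 and 1 in WT. They were of the second kind in both replicate 2 libraries, of the first kind in WT replicate 1 and of both kinds in Mat KO replicate 1.

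Cells of another lineage gave a measure of what such low counts look like where the genes are not known to be used. A total of 16 cells held at least 5 UMIs of each of 5 or more genes from a list of 12 B-lymphoid markers (Cd79a, Ebf1, Pax5 and others), 6 and 3 of them Mat KO cells and 5 and 2 of them WT cells. S100a8 was seen in all 16 of them, and in the other cells under 10% it was seen in 35 of 35 and 43 of 44 for Mat KO, against 42 of 42 and 45 of 45 for WT. Detection of S100a8 was thus at or near its ceiling in both sorts of cell and cannot set them apart. The median S100a8 count of the B-lymphoid marker cells was 86 and 2 UMIs in Mat KO, against 28 and 531.5 in WT. That of the other cells was 61 and 4.5 UMIs in Mat KO, against 16.5 and 10 in WT, so Mat KO replicate 2 went the other way. The source of these UMIs was not tested. Ngp detection had no single order over the libraries. It was seen in 6 of 6 B-lymphoid marker cells and 35 of 35 others in Mat KO replicate 1 and in 1 of 3 and 18 of 44 in Mat KO replicate 2, against 5 of 5 and 31 of 42 in WT replicate 1 and 2 of 2 and 22 of 45 in WT replicate 2. Ltf was seen in 5 of 6 and 31 of 35 in Mat KO replicate 1 and in 0 of 3 and 3 of 44 in Mat KO replicate 2, against 2 of 5 and 18 of 42 in WT replicate 1 and 1 of 2 and 11 of 45 in WT replicate 2. The B-lymphoid marker cells were few, and their median depth was 45491.5 and 52128 UMIs for Mat KO, against 73986 and 138066 for WT, where the other cells had 31899 and 25393.5 for Mat KO, against 48667.5 and 50020 for WT. The median B-lymphoid marker cell had 170.5 and 10 UMIs in the 9 genes for Mat KO, against 44 and 940 for WT, and the median other cell 124 and 18 for Mat KO, against 47 and 29 for WT. The B-lymphoid marker cells were thus above the others in Mat KO replicate 1 and in WT replicate 2, where they were 2 cells of 19 and 1861 UMIs, and below them in the other 2 libraries.

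Barcodes without a cell held UMIs of the 9 genes too. In Mat KO replicate 1, 4 of barcodes 1 to 48 were under the limit of 1000 genes, and these had 41 to 86 UMIs of the 9 genes each (3.13% of their UMIs in all). The values that follow are for barcodes 49 to 96. Mat KO had 59 and 4 such UMIs, spread over 25 and 3 of the 48 barcodes, against 25 and 5 UMIs over 10 and 5 barcodes for WT. This was 8.18% (interval 6.29 to 10.4%) and 0.520% (0.142 to 1.33%) of the 721 and 769 UMIs there in Mat KO, against 1.93% (1.26 to 2.84%) and 0.430% (0.140 to 1.00%) of 1293 and 1164 UMIs in WT. S100a8 gave 25 and 0 of them in Mat KO, against 18 and 3 in WT, and S100a9 16 and 0 in Mat KO, against 3 and 2 in WT. The share without a cell divided by the share over all kept cells was 2.17 and 0.991 in Mat KO, against 2.65 and 1.26 in WT. Set against the median cell it was 16.3 and 8.11 in Mat KO, against 19.8 and 6.97 in WT. The long-term HSC list, for comparison, had 2 UMIs without a cell in each library, too few to set against the kept cells. They were 0.277% and 0.260% of UMIs without a cell in Mat KO, against 0.155% and 0.172% in WT. In kept cells the list took 0.345% and 0.418% in Mat KO, against 0.479% and 0.380% in WT.

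In raw UMIs, with no scaling for depth, the libraries stood in 1 order in all 3 kinds of barcode: Mat KO replicate 1, WT replicate 1, WT replicate 2 and Mat KO replicate 2 from high to low. The cells above 10% summed to 60885 and 3041 UMIs of the 9 genes in Mat KO, against 18868 and 4943 in WT, the median cell under 1% had 120.5 and 17 in Mat KO, against 45.5 and 23 in WT, and the barcodes without a cell had 59 and 4 in Mat KO, against 25 and 5 in WT. The last step of that order without a cell was 4 against 5 UMIs. As shares of UMIs Mat KO replicate 2 was above WT replicate 2, at 0.520% against 0.430% without a cell, 0.0638% against 0.0605% in the median cell under 1%, and 0.525% against 0.341% over all kept cells. With 4 libraries no correlation is given. The part of free RNA from the highest cells in the counts of the other cells was not tested.

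**Figure D4:**
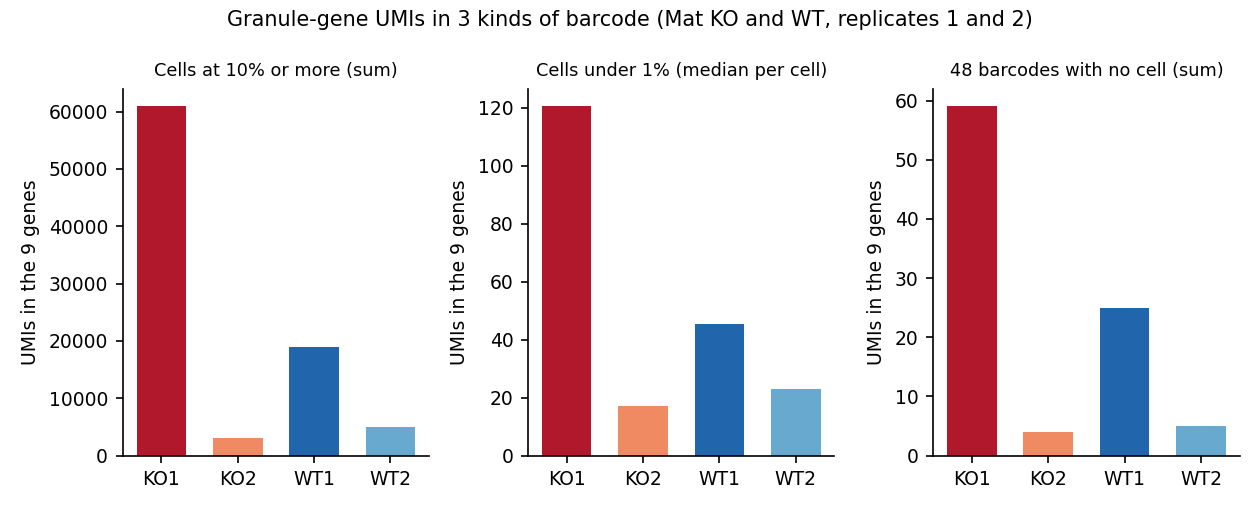
UMIs in the 9 genes in each library (KO1, KO2 for Mat KO replicates 1 and 2, then WT1, WT2) in cells with at least 10% of UMIs in these genes (left, sum), in cells under 1% (middle, median per cell) and in the 48 barcodes without a cell (right, sum). UMIs are not scaled for depth, all axes start at 0 and differ in scale, and KO1 is the highest bar and KO2 the lowest in each panel.

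The same barcode number stood out in more than 1 library. Barcode 14, which held 30325 UMIs of the 9 genes in Mat KO replicate 1 and 235 in Mat KO replicate 2, held 263 in WT replicate 1 and 1861 in WT replicate 2. Barcode 25 held 28213 and 235 UMIs in Mat KO, against 288 and 1708 in WT. The WT replicate 2 values were 6.14% and 6.05% of those in Mat KO replicate 1 and ranked 2 and 3 among the 48 barcodes of that library. Barcodes 4 and 26, the next highest in Mat KO replicate 1 at 2347 and 3911 UMIs, had 132 and 187 in WT replicate 2 (5.62% and 4.78%), ranking 6 and 5. Lyz2 gave 148 of the 187 UMIs at barcode 26 there, and 2952 of the 3911 in Mat KO replicate 1. The 132 UMIs at barcode 4 held 65 S100a8, 45 S100a9, 13 Retnlg and 0 Ngp UMIs. Barcode 14 of WT replicate 2 was one of the B-lymphoid marker cells, with 1518 UMIs of B-lymphoid markers, 10 of the monocyte and macrophage list, and 223278 UMIs in all, the deepest of its library.

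Other high cells varied in what their barcode held elsewhere. Barcode 48, with 3729 UMIs in Mat KO replicate 2, had 154 in Mat KO replicate 1 and 232 in WT replicate 1 (6.22%, rank 6), in a cell of 287142 UMIs. Barcode 43, with 1066 UMIs in WT replicate 1, had 208 in Mat KO replicate 1 (19.5%), and barcode 3, with 959 UMIs in WT replicate 2, had 230 in Mat KO replicate 1 (24.0%, rank 12). Make-up differed at barcodes 48 and 43. The 232 UMIs held 108 S100a8, 58 Lcn2 and 46 Lyz2 UMIs, against 3664 Lyz2 UMIs of 3729. The 208 UMIs held 117 S100a8, 44 S100a9, 13 Lyz2 and 6 Chil3 UMIs, against 681 Lyz2 and 340 Chil3 of 1066. Cells under 1% in Mat KO replicate 1 had 21 to 279 UMIs of the 9 genes. Barcode 2, with 4943 UMIs in WT replicate 2, had 270 (5.46%, rank 9 of 48) and 29 in the Mat KO libraries and 92 in WT replicate 1. Barcode 10, with 18868 UMIs in WT replicate 1, had 193 and 56 UMIs in the Mat KO libraries and 48 in WT replicate 2. Barcode 46, with 3041 UMIs in Mat KO replicate 2, had 62 in Mat KO replicate 1, and 30 and 20 in the WT libraries. Other genes were looked at in the same way. Of 39 genes outside the 9 that had at least 50 UMIs in Mat KO replicate 1, 80% or more of them in 1 cell, and also had at least 5 UMIs in WT replicate 2, 8 (20.5%) had the same leading barcode there. For the other pairs of libraries 0 to 2 genes did. Low counts also followed the barcode, since the percentage of UMIs in the 9 genes had Spearman coefficients of 0.41 to 0.55 between pairs of libraries over 32 to 43 barcodes under 1% in both, with barcode depth shared as given above. The part of barcode sharing in the WT replicate 2 counts was not tested. Without barcodes 2, 4, 10, 14, 25 and 46 in every library, a choice made after seeing the data, the summed share was 0.650% and 0.385% in Mat KO, against 0.139% and 0.0864% in WT, Lyz2 was called higher (log2 fold change 3.10, adjusted p = 0.00364), beside 0.166% of all genes, and the log2 fold changes of all 9 stayed above 0 (1.19 to 3.10). Of the 5651 UMIs of the 9 genes then left in Mat KO replicate 2, barcodes 48 and 6 held 4852.

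**Figure D5:**
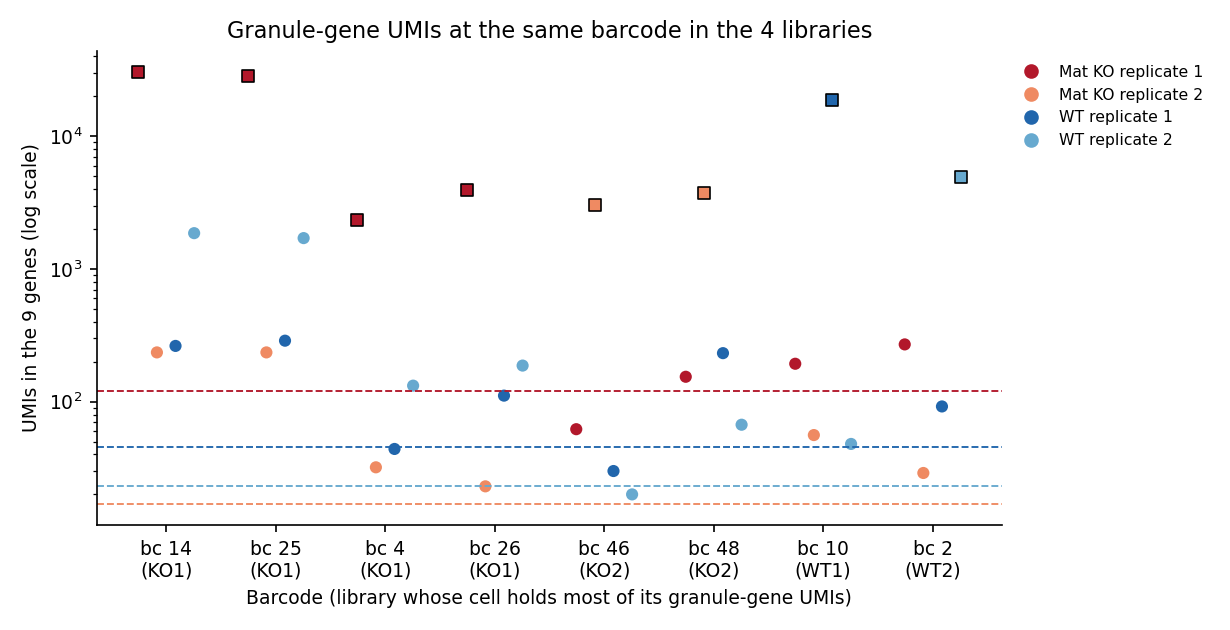
UMIs in the 9 genes (log scale) at 8 barcodes in each of the 4 libraries, Mat KO in red and WT in blue, with squares for the library that holds most of them and circles for the same barcode elsewhere. Dashed lines are the median of cells under 1% in each library, and at barcodes 14 and 25 WT replicate 2 lies at 1861 and 1708, far above its line at 23.

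Genes that act with the 9 were read from lists of known function, described by counts beside the shares of all genes given above. Of the 16 tested genes of the other secondary and tertiary granules, 15 had a fold change above 0, with a median log2 fold change of 2.07. The edgeR test called 0 of them, 6 had an unadjusted p under 0.05, and DESeq2 called 2 (Hp and Itgb2l). Cybb, a subunit of the phagocyte oxidase, stood at 878 and 184 CPM in Mat KO, against 87.6 and 16.3 CPM in WT (SE 0.76 around a log2 fold change of 3.38, adjusted p = 0.210). Of the 8 tested primary granule genes 4 were above 0 and the median was 0.21, with 0 called by edgeR or DESeq2 and 2 at an unadjusted p under 0.05. Fcnb, which encodes ficolin B, stood at 32.6 and 7.35 CPM in Mat KO, against 1.26 and 0.615 CPM in WT (log2 fold change 4.37, adjusted p = 0.433). Prtn3, the gene of proteinase 3, stood at 109 and 161 CPM in Mat KO, against 278 and 182 CPM in WT, so it was lower in both Mat KO libraries (log2 fold change -0.73, adjusted p = 0.632). In the first kind of cell the 11 primary granule genes had few UMIs, 98 in barcode 14 and 172 in barcode 25 of Mat KO replicate 1 and 92 in barcode 10 of WT replicate 1.

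Neutrophil surface and maturation genes had 8 of 12 tested above 0 and a median of 1.20, and granulocyte transcription factors 6 of 6 and a median of 1.05. The edgeR test called 0 in both, 6 and 1 had an unadjusted p under 0.05, and DESeq2 called 1 (Mcemp1) and 0. Ly6g, a defining surface marker, was in the surface and maturation list, and its own counts are not reported here. Receptors for these proteins, such as Tlr4, were mostly too low to test, with 4 of 9 tested, 0 called by edgeR or DESeq2 and 2 at an unadjusted p under 0.05. Other S100 genes had 5 of 6 above 0, a median of 0.47 and 0 called by edgeR, where DESeq2 called 2 (S100a4 and S100a6), the same number as at an unadjusted p under 0.05. The smallest p was that of S100a6 at 353 and 314 CPM in Mat KO, against 162 and 142 CPM in WT (log2 fold change 1.16, adjusted p = 0.218).

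The monocyte and macrophage list held called genes, 3 by edgeR and 9 by DESeq2. All 11 of its tested genes were above 0, with a median of 2.53, and those that rose in Mat KO by the edgeR test were Ly6c2 (log2 fold change 2.53, adjusted p = 0.00349), Mpeg1 (5.23, adjusted p = 0.00864) and Lgals3 (3.39, adjusted p = 0.0304). Ly6c2, a surface protein of inflammatory monocytes, stood at 540.4 and 589 CPM in Mat KO, against 94.9 and 105 CPM in WT. None of the 3 calls was reached with the leading cell of each gene left out, where Ly6c2 stood at 3.14 (adjusted p = 0.205) and Lgals3 at 2.59 (adjusted p = 0.338) and Mpeg1 was too low to test, or at equal depth, where Ly6c2 stood at 0.63 (adjusted p = 0.656), Mpeg1 at 4.46 (adjusted p = 0.491) and Lgals3 at 1.89 (adjusted p = 0.523). Lyz1, of the close paralogs, had 362 and 180 UMIs in Mat KO, against 7 and 1 UMIs in WT, and rose in Mat KO (SE 0.71 around a log2 fold change of 6.85, adjusted p = 0.00349). That call was not reached with the leading cell left out (log2 fold change 7.34, adjusted p = 0.0874) or at equal depth (7.78, adjusted p = 0.107). The part of the few monocyte-gene-rich cells in the Lyz2 values was not tested beyond leaving out the leading cell. Of the 23 long-term HSC genes, 7 were above 0 and 16 below with a median of -0.08, 0 were called by edgeR or DESeq2, and 1 had an unadjusted p under 0.05.

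Among 9011 genes seen in enough cells, those whose CPM ran most like the summed CPM of the 9 over the kept cells, by the mean of 4 within-library Spearman coefficients, were Mmp8 (0.40), Igsf6 (0.38), Clec4a2 (0.38), Cybb (0.37), Lgals3 (0.36), Ncf1 (0.36), Wfdc21 (0.35) and Ifitm6 (0.35). Mmp8 encodes the collagenase of neutrophil granules. These coefficients share the cells and depth of each library and rest on low counts. Among the 9 themselves S100a8 and S100a9 ran most alike, with a mean of 0.68, from 0.93 and 0.50 in Mat KO to 0.80 and 0.48 in WT, and Retnlg and Lyz2 least alike, with a mean of 0.08.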

How the data were processed

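The authors deposited unnormalized UMI counts, 1 table of genes by 96 barcodes for each library, from a modified STRT-seq protocol per the labels. TopHat2 2.0.12, HTSeq and mm10 appear in the submitters' processing notes with no role given. Of 24506 rows, 95 spike-in or marker rows were left out. Cells are not replicates, so UMI counts of kept cells were summed per library (totals 1768647 to 3253608) and compared with edgeR 4.0.16 in R 4.3.3 (TMM factors, filterByExpr, genotype as the only term, adjusted p under 0.05 over all genes). The fit was tested on simulated data. Alternatives were RLE factors, DESeq2 1.42.0, other gene and cell filters, thinning, leaving out cells, barcodes or libraries, and a replicate block. The 9 genes, the lists and the tests were chosen with earlier results of these data known. Named genes are the 9, the genes of each list past the test or otherwise the pair of smallest p, where a result turns on them, the 8 most alike and the close paralogs. A list gene that the rule picks is left out of the text. Cells of the 3 make-ups were named after their values were seen. Doublets were not called, since cells were picked singly.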

Additional observations from a re-analysis of the deposited data

Results flagged for a closer look

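The share of UMIs in the 9 genes among the 48 barcodes without a cell of Mat KO replicate 1 was 8.18% (59 of 721 UMIs), above that in both WT libraries, at 1.93% (25 of 1293 UMIs) and 0.430% (5 of 1164 UMIs). It is listed because these barcodes lie outside the comparison of the genotypes. Mat KO replicate 2 had 0.520% (4 of 769 UMIs). In the kept cells of Mat KO replicate 1 the share was 3.77%.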

How the results depend on the processing

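The count of the 9 genes called, 0, was 0 with RLE factors, DESeq2, at least 2000 genes per cell, thinning, or the leading cell of each gene left out. It was 9 with no gene filter, 1 with at least 50 UMIs in every library of a genotype, 1 without the barcodes of the highest cells (chosen after seeing the data), and 1 to 8 with 1 library left out. Calls over all genes, 8, were 149 with no gene filter, 36 with the 50 UMI filter, 5 with 2000 genes per cell, 1 with thinning, 0 with the leading cells left out, 17 without those barcodes, 109 with DESeq2 and 17 to 123 with 1 library left out. The causes were not tested.

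The log2 ratio of the summed share, 2.01, ran from -0.028 to 2.82 with 1 library left out. It was 0.79 at equal depth and 3.003 without the cell of each library with the most such UMIs. The equal-depth value also leaves out barcode 46 of Mat KO replicate 2, which had under 8800 UMIs. Log2 fold changes with 1 library left out ran from -0.90 to 2.26 (S100a8), -1.28 to 2.66 (S100a9), -1.71 to 3.97 (Ngp), -3.66 to 4.74 (Camp), -1.44 to 4.95 (Lcn2), -4.68 to 4.90 (Ltf) and -3.40 to 5.29 (Chil3), each below 0 without Mat KO replicate 1 alone, and Retnlg was below 0 at 2000 genes per cell (-0.050). The share without a cell over that in kept cells was 21.3 and 8.33 in Mat KO, against 21.7 and 8.17 in WT, without the 5 highest cells, and 16.3 and 8.11 in Mat KO, against 19.8 and 6.97 in WT, over the median cell.

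Replicate numbers did not pair the libraries: deviations of the replicate 1 libraries from their group means had a Pearson coefficient of -0.017. With a replicate block 5 of the 9 genes and 109 of all genes were called. Leaving out cells with 3 or more other neutrophil genes was not run, since 0 cells of Mat KO replicate 1 remained. Libraries of 2 per genotype and low counts in most cells limit every value.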
